A study of Mus musculus with 12 samples.

Results

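Neuropeptide precursors are the genes Pmch, Sst, Npy, Vip, Penk, Pdyn, Tac1, Cck, Crh and Trh. They were chosen by gene name, with their ratios and signals on these arrays already known, so their values in the 3 comparisons are given as a description and support nothing. Every probe that was not a control and whose RefSeq accession belongs to a member was taken. This gave 10 probes, 1 for each of the 10 genes, among 20887 genes that could be named, and 9 of the 10 members were among the 14330 named genes with an expressed probe, meaning that either condition of some comparison gave a signal well above background in 3 or more of its 4 channels. The exception was Pdyn.

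The arrays compared differentiated neurospheres, the attached and differentiated form of floating aggregates of neural progenitor cells. All of them came from the telencephalon of C57BL/6 mouse embryos at day 13 and were differentiated for 7 days without growth factors. WT neurospheres were wild type and untreated. APP_WT neurospheres carried APPswe/PS1dE9, a pair of transgenes (a chimeric mouse and human APP with the Swedish mutation, and a human PS1 lacking an exon) that are both directed to neurons of the central nervous system, and were untreated. BK_APP neurospheres carried the same transgenes and received 1 µM BK (bradykinin, the agonist of the B2 kinin receptor) on days 0, 3 and 6. HOE_APP neurospheres carried them too and received 1 µM HOE-140, which blocks that receptor, on the same days. Each comparison had 4 arrays with 2 colors, and each array held 100 ng total RNA of 1 replicate of both conditions, with the dyes exchanged between replicates 1 and 2 and replicates 3 and 4. The labels of the HOE_APP arrays name the same treatment in both channels, so the direction of every HOE_APP value below is likely only.

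Neuropeptides are short signaling peptides that neurons cut from larger precursor proteins inside dense-core granules and release during sustained firing. Sst, Npy, Vip and Cck encode peptides of cortical interneurons, and Sst (somatostatin) and Npy (neuropeptide Y) are often made by the same cells. Penk, Pdyn and Tac1 encode enkephalins, dynorphins and substance P, which are abundant in projection neurons of the striatum, a derivative of the ventral telencephalon. Crh, Trh and Pmch encode corticotropin-releasing hormone, thyrotropin-releasing hormone and melanin-concentrating hormone, which are best known from the hypothalamus, a region outside the telencephalon. Transcription of several of these genes responds to the factor CREB, which binds the cAMP response element (CRE).

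The sequences before the start sites of Npy, Sst and Pmch are shown because these members had the ratios farthest from 0 between APP_WT and WT. In GRCm38.p6 Npy (NCBI gene 109648) lies at chr6:49822710-49829507, Sst (20604) at chr16:23889573-23891342 and Pmch (110312) at chr10:88091072-88092374. The sequences are those of RefSeq for this assembly, which held an entry for 8 of the 10 members (Penk and Crh were without one), and are written 5′ to 3′ on the strand of the gene. For Npy and Pmch the 150 bases before the start are given, at chr6:49822560-49822709 and chr10:88090922-88091071, both on the plus strand. For Sst, on the minus strand, 30 bases around a match are given, at chr16:23890874-23890903. They precede the start of the RefSeq promoter entry, base 23890844, but lie within the gene as annotated, which reaches farther upstream. Capitals mark the full CRE (TGACGTCA) in Sst and the TATA box letters (TATAAA) in Pmch.
Npy: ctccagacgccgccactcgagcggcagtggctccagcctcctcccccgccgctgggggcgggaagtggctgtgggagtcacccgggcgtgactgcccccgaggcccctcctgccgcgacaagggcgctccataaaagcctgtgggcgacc
Sst: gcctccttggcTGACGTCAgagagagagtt
Pmch: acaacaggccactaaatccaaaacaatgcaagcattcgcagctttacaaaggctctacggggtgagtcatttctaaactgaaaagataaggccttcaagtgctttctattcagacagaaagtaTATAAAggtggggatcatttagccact

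The full CRE of Sst began at position −48, counted from −1 at the base before the start of the entry. Among the 250 bases before each start, 1 of the 8 members with an entry (Sst) held the full CRE on either strand, and 508 of 32851 promoters did (1.55%). The shorter core TGACG, which also lies within the full CRE, was found on either strand in 5 of the 8 members, namely Sst, Vip, Tac1, Cck and Trh, and in 17.8% of all promoters. TATAAA on the coding strand was found in Pmch, at position −27, and in Vip, and in 7.59% of all promoters. The letters CACGTG, an E-box, were found in Tac1 and Cck and in 6.02% of all promoters. None of these 4 motifs was found in the Npy window. A match is a stretch of letters and was not tested for binding.

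The 12 arrays had median spot signals of 63 to 94.5 in the green (Cy3) channel and 89.5 to 117.5 in the red (Cy5) channel, in scanner units. Between 45.2% and 60.1% of the spots of a channel were well above background, a call of the scanner software. Arrays of the same dye orientation correlated with each other within a comparison (r of 0.244 to 0.608 over the expressed probes), while arrays of opposite orientation correlated at 0.243 to 0.463 for APP_WT versus WT, at −0.323 to −0.114 for BK_APP and at −0.321 to −0.191 for HOE_APP. The model therefore held a dye coefficient for each comparison. All 12 listed neuron markers, 8 astrocyte markers and 8 neural progenitor markers had an expressed probe. The mouse App probe had log2 ratios of 0.23, 0.27, 0.00 and −0.03 (APP_WT over WT) and did not pass the test, and whether it reads the transgene is not known, so it does not check the labels. As these are bulk cultures, fewer cells of a type and less RNA per cell cannot be told apart.

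Detection divided the members into 3 sets. The probes of Sst, Npy, Penk, Tac1 and Cck were well above background in all 24 channels. Those of Trh, Crh and Vip were in 23, 19 and 16 of 24 channels. Pmch and Pdyn were in the fewest, 6 and 4 of 24 channels.

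**Figure D1:**
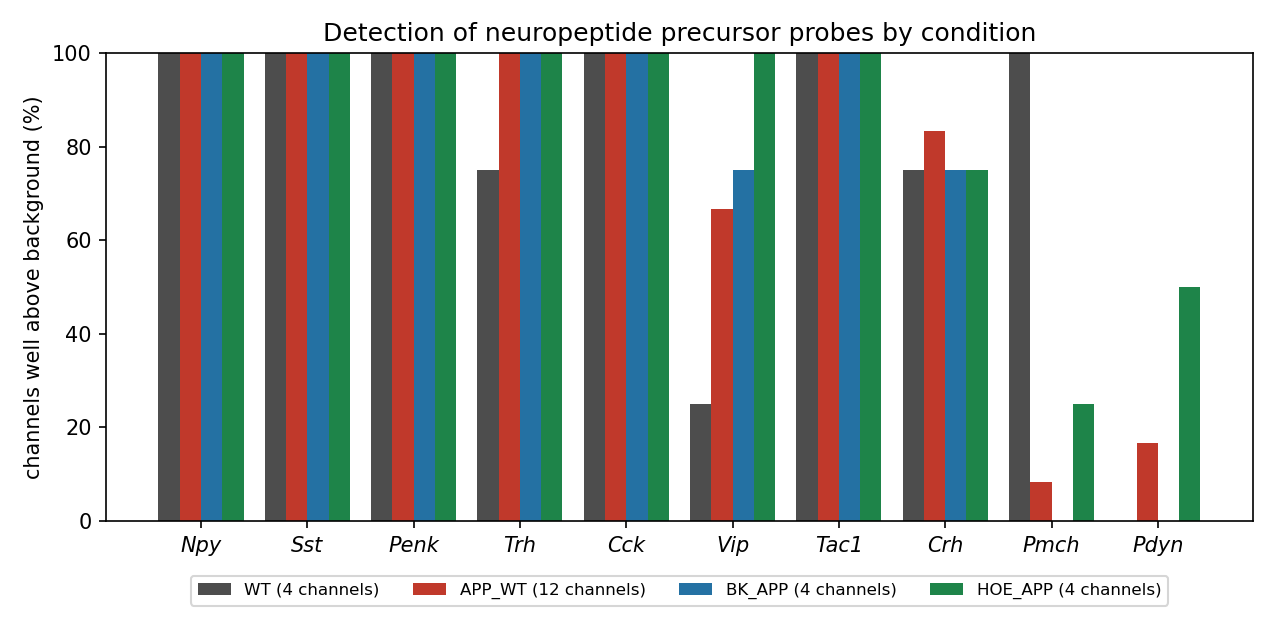
Share of channels (%) in which the probe of each precursor was well above background, by condition, with 4 WT, 12 APP_WT, 4 BK_APP and 4 HOE_APP channels. Sst, Npy, Penk, Tac1 and Cck were above background everywhere, Pmch in 4 of 4 WT channels but 1 of 12 APP_WT channels, and a missing bar stands for 0%.

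The Pmch probe was above background in 4 of 4 WT channels, in 1 of 12 APP_WT channels, in 0 of 4 BK_APP channels and in 1 of 4 HOE_APP channels. It counted as expressed only through the WT channels, and the filter that admitted it thus used the group in which it was high. Pdyn was above background in 0 of 4 WT, 2 of 12 APP_WT, 0 of 4 BK_APP and 2 of 4 HOE_APP channels, reached 3 arrays in no comparison, and was not tested.

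Detection of Vip and Crh also differed between the dyes. Vip was above background in 5 of 12 Cy3 channels and 11 of 12 Cy5 channels, and Crh in 8 and 11. Pmch was in 3 and 3, Trh in 12 and 11. By condition, Vip was above background in 1 of 4 WT, 8 of 12 APP_WT, 3 of 4 BK_APP and 4 of 4 HOE_APP channels. It was not expressed by the rule of 3 arrays between APP_WT and WT, where its 4 APP_WT channels gave 2 detections, and it was tested there because it was expressed in the other 2 comparisons. With the more lenient significance flag of the same software, Vip, Crh and Trh were detected in 24 of 24 channels, Pdyn in 17 and Pmch in 9.

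Between APP_WT and WT neurospheres Npy, Sst and Penk were higher in APP_WT on 4 of 4 arrays, as were Trh, Cck and Vip by smaller amounts. Pmch was lower on 4 of 4, and Tac1, Crh and Pdyn had ratios of both signs. The members of 1 brain region thus did not all move alike. Among the 9 members tested, Npy, Sst, Penk and Trh (4) passed the limma threshold of an adjusted p of 0.05 with higher values and Pmch (1) with a lower value, so that 5 were called. Over all 29361 expressed probes this share was 18.5% (11.6% higher and 7.00% lower), and over the 14330 named genes it was 17.0% higher and 8.03% lower. As the members were chosen with these ratios known, nothing is read from their count. The log2 fold changes of the members are on a scale compressed for dim probes by an offset of 50. Their median was 0.22, against 0.00 over all expressed probes.

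Npy had normalized log2 levels of 8.34 to 8.63 on the 4 WT channels and of 9.38 to 10 on the APP_WT channels of the same arrays. Its log2 ratios were 1.18, 1.04, 1.45 and 1.51 on replicates 1 to 4, and the fitted log2 fold change was 1.29 (SE 0.05, n = 4), which is 2.45-fold higher in APP_WT. The groups did not overlap.

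Sst was measured by 10 spots on each array, with log2 ratios of 0.52, 0.66, 1.13 and 0.92 and a fitted value of 0.81 (SE 0.05, n = 4), or 1.75-fold higher in APP_WT. The spots of an array agreed closely, with SDs of 0.05 to 0.10, and the lowest single spot of the 4 arrays was at 0.33. The levels were 10.06 to 10.28 in WT and 10.78 to 11.2 in APP_WT, again without overlap, and replicates 3 and 4 gave the larger ratios.

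Penk, which encodes the precursor of the enkephalins, had log2 ratios of 0.35, 0.54, 0.63 and 0.65 and a fitted value of 0.54 (SE 0.06, n = 4), or 1.45-fold. Its levels of 8.94 to 9.04 in WT and 9.39 to 9.66 in APP_WT did not overlap. How many of all expressed probes lacked overlap was not counted, so nothing is read from these 3 members. A ratio of 1 sign on all 4 arrays was seen for 7 of the 9 members tested and for 26.9% of all expressed probes.

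Trh had log2 ratios of 0.44 and 0.38 on replicates 1 and 2 but of 0.08 and 0.03 on replicates 3 and 4. Its fitted value of 0.23 (SE 0.06) passed the threshold, although the levels of 6.66 to 7.09 in WT and 6.94 to 7.21 in APP_WT overlapped. The ratios thus differed between the dye orientations more than between replicates, and the call was lost whenever any 1 of the 4 replicates was left out (adjusted p of 0.0725, 0.055, 0.0909 and 0.0641 by limma without replicates 1, 2, 3 and 4).

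Cck, Vip, Tac1 and Crh did not pass the threshold. Cck had log2 ratios of 0.52, 0.16, 0.13 and 0.08 (fitted 0.22, SE 0.08) and Vip had 0.13, 0.04, 0.37 and 0.29 (fitted 0.21, SE 0.08). All 8 of these ratios were above 0. With the replicate number as a block both were called (limma adjusted p = 0.0212 for Cck and 0.0386 for Vip). Cck was also called without replicate 2 (log2 fold change 0.32), while its value without replicate 1 was 0.13.

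Tac1 gave −0.23 and −0.48 on replicates 1 and 2 and 0.02 and 0.10 on replicates 3 and 4 (fitted −0.15, SE 0.06), so that its sign followed the dye orientation. For Crh the 4 ratios were −0.08, −0.29, −0.05 and 0.15 (fitted −0.07, SE 0.07). Pdyn had ratios of 0.24, −0.10, −0.17 and 0.28, without a fit. The APP_WT and WT levels of these 3 probes overlapped.

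Pmch, the melanin-concentrating hormone precursor, had median signals of 148.5, 320, 101.5 and 86 scanner units in the WT channels of replicates 1 to 4 and of 39, 152, 40 and 47 in the APP_WT channels. The local backgrounds of these 8 channels were 22 to 41. WT was the brighter channel on each array and in both dye orientations, but replicate 2 stood apart, with the highest signal in both conditions, the only APP_WT channel above background and a log2 ratio of −0.15. The ratios of replicates 1, 3 and 4 were −1.11, −1.31 and −0.88. In the BK_APP and HOE_APP comparisons the APP_WT channels of replicate 2 gave signals of 61 and 55, which were not well above background.

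The fitted log2 fold change of Pmch was −0.86 (SE 0.13, n = 4), a value set against APP_WT channels of which 3 of 4 were not above background. The levels of 6.77 to 7.92 in WT and 5.81 to 7.77 in APP_WT overlapped because of replicate 2. Without replicates 1 to 4 in turn the value was −0.62, −1.10, −0.75 and −0.97. The size of the change depended on how the background of this dim probe was treated. It was −1.15 without background subtraction, −1.60 with an offset of 10 in place of 50, and −2.95 with the log ratios that the scanner software had formed. The probe entered the test through the WT channels alone, so its passing the threshold is no support for the difference.

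**Figure D2:**
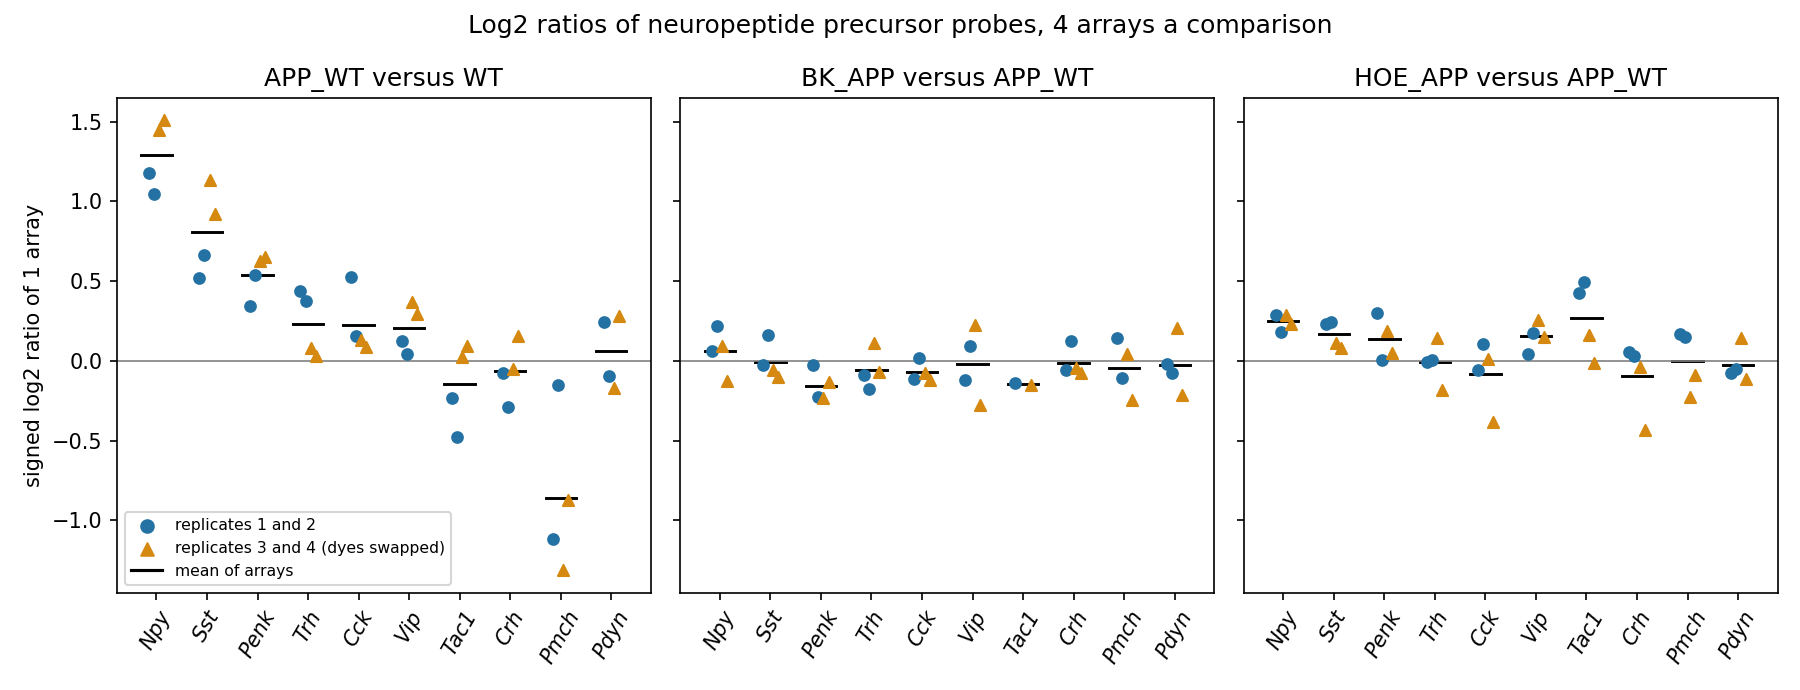
Signed log2 ratio of each precursor probe on each array in the 3 comparisons (circles, replicates 1 and 2; triangles, replicates 3 and 4 with the dyes exchanged; bars, mean of the arrays). Npy, Sst and Penk lie above 0 and Pmch below 0 on all 4 arrays of APP_WT versus WT, while the ratios of the other 2 comparisons lie between −0.44 and 0.49.

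**Figure D3:**
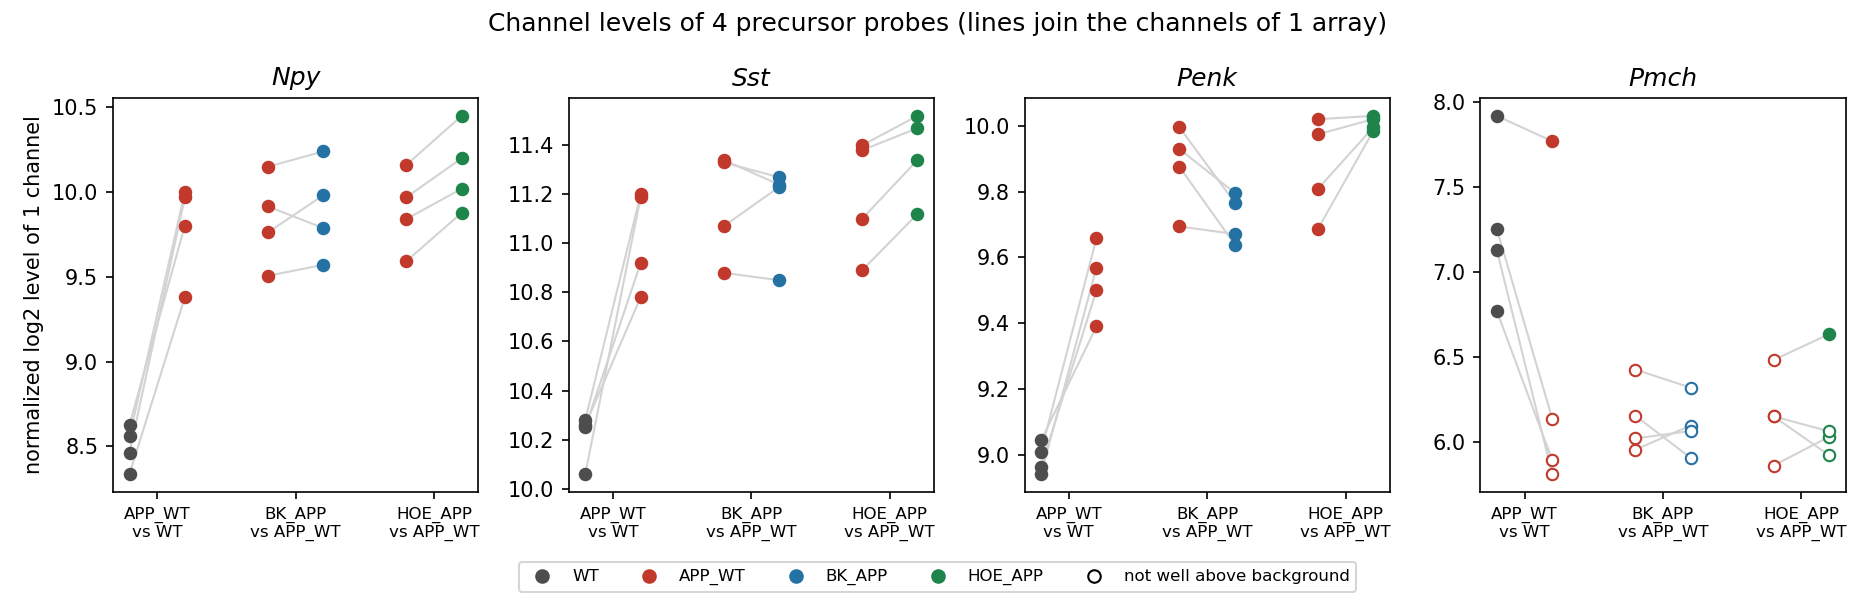
Normalized log2 level of Npy, Sst, Penk and Pmch in each channel, with lines joining the 2 channels of an array and open points for channels not well above background. The WT points of Npy, Sst and Penk lie below all APP_WT points of the same comparison, and the Pmch points of replicate 2 lie above the others.

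In BK_APP compared to APP_WT, 0 of the 9 members passed the adjusted threshold, as did 0% of all expressed probes (smallest limma adjusted p = 0.967). With an unadjusted p below 0.05 there was 1 member, Penk, while 4.47% of all expressed probes met this. SAM and rank products, the tests of the original methods, called 0 members and 513 of 26244 probes (1.95%). Pmch and Tac1 were not among the probes they tested in this comparison, and nothing is read from this count. The fitted values of the 9 members lay between −0.16 and 0.06.

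Penk had log2 ratios of −0.02, −0.23, −0.24 and −0.13 after BK (fitted −0.16, SE 0.06). It was the only member with 1 sign on all 4 arrays, which 9.64% of all expressed probes had. The levels of 9.64 to 9.80 in BK_APP and 9.69 to 10.00 in APP_WT overlapped.

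For the members that were highest in APP_WT over WT, the BK ratios were small. Npy had 0.06, 0.22, 0.09 and −0.13 (fitted 0.06, SE 0.05) and Sst −0.02, 0.16, −0.06 and −0.10 (fitted −0.01, SE 0.05). Both probes had ratios on either side of 0. The fitted values of Cck (−0.07), Trh (−0.06), Pmch (−0.04), Vip (−0.02) and Crh (−0.01) were below 0, each smaller in size than its SE.

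Tac1 had uneven spots on replicates 2 and 3 of this comparison, with signals of 783.5 and 1368 in BK_APP and of 342 and 2459 in APP_WT. On the other 2 arrays of the comparison the probe had signals of 174 to 464. The uneven spots were dropped, and the value of −0.15 (SE 0.08) rests on ratios of −0.14 and −0.15 from the other 2 arrays.

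In HOE_APP compared to APP_WT, again 0 members and 0% of the expressed probes passed the adjusted threshold (smallest limma adjusted p = 0.898). Unadjusted p-values below 0.05 were obtained for 3 members, Npy, Tac1 and Sst, and for 5.03% of all expressed probes. SAM and rank products called the same 3 members, and 675 of 28859 probes. Ratios of 1 sign on all 4 arrays were seen for 4 of the 9 members (Npy, Sst, Vip and Penk, all above 0) and for 10.6% of all expressed probes.

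Npy had log2 ratios of 0.29, 0.18, 0.29 and 0.23 (fitted 0.25, SE 0.05, n = 4), the smallest spread among the members in this comparison. Sst had 0.23, 0.25, 0.11 and 0.08 (fitted 0.17, SE 0.05) and Tac1, the substance P precursor, 0.43, 0.49, 0.16 and −0.01 (fitted 0.27, SE 0.06). The HOE_APP and APP_WT levels of all 3 probes overlapped. As APP_WT was the numerator against WT and the denominator here, the 2 comparisons share this condition and are only set side by side.

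Penk had log2 ratios of 0.30, 0.01, 0.19 and 0.05 (fitted 0.14, SE 0.06) and Vip had 0.05, 0.18, 0.26 and 0.15 (fitted 0.16, SE 0.08). The other members had ratios of both signs. Cck and Crh were lowest on replicate 4, with −0.38 and −0.44, and their fitted values were −0.08 and −0.10. Trh and Pmch had fitted values of −0.01 and 0.00.

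Whether BK and HOE-140, an agonist and an antagonist of the same receptor at the same dose and days, differed in their ratios was tested as BK_APP minus HOE_APP. Of the 9 members 0 passed the adjusted threshold, as did 0% of the expressed probes (smallest limma adjusted p = 1), and 4 members had an unadjusted p below 0.05 against 2.50% of all expressed probes. These were Tac1 with a difference of −0.41 (SE 0.10), Penk with −0.29 (SE 0.09), Npy with −0.18 (SE 0.08) and Sst with −0.18 (SE 0.08). The difference was below 0 for 7 of the 9 members, with Cck (0.01) and Crh (0.08) as the exceptions. The APP_WT channels of the 2 comparisons are separate hybridizations, but same-numbered arrays deviated together (r of 0.423 and 0.432), which this fit did not use. With the replicate number as a block, again 0 members were called. Each difference depends on the likely direction of the HOE_APP arrays. With that direction turned, 5 of the 9 differences were below 0, with Penk at −0.02 and Tac1 at 0.12, and 1 member, Npy at 0.31 (SE 0.08), had an unadjusted p below 0.05, against 7.93% of all expressed probes, with 0 probes past the adjusted threshold (smallest limma adjusted p = 0.164).

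**Figure D4:**
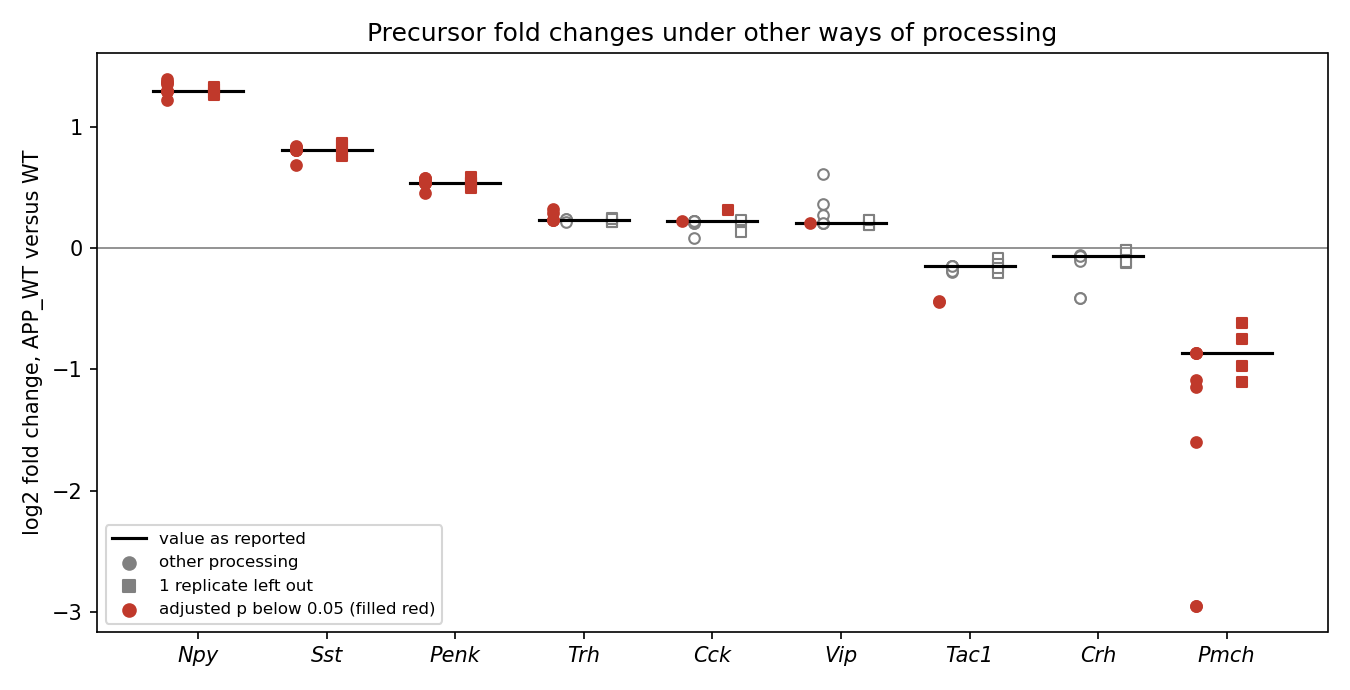
Log2 fold change of each tested precursor, APP_WT versus WT, as reported (black bar), under other ways of processing (circles) and with 1 replicate left out (squares), filled red where the adjusted p was below 0.05. Npy, Sst and Penk were filled throughout, and the Pmch values, from a probe admitted through WT alone, spread from −2.95 to −0.62.

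Across the 12 arrays the ratios of Npy and Sst followed each other (Pearson r = 0.959), as did those of Npy and Penk (0.9) and of Sst and Penk (0.899). The points share their arrays, and the 4 arrays of APP_WT versus WT set most of the range. Among all named genes the ratios most like those of Npy were those of Thy1 (r = 0.985), a surface glycoprotein of neurons, Ppp1r32 (0.981) and Etl4 (0.977). For Sst they were Thy1 (0.975), Tmem50b (0.971) and Vstm2l (0.971), and for Penk Mal2 (0.914), Tmem50b (0.913) and Tbr1 (0.907), a transcription factor of cortical glutamatergic neurons. Thy1 thus came first for both Npy and Sst. Pmch was most like Dipk1c (0.942), Rrm2 (0.917) and Ndc80 (0.897), and its r with Npy was −0.837.

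The pathway around these peptides was described with 6 lists of genes that the rule did not use. Of 126 expressed list genes, 47 passed the adjusted threshold between APP_WT and WT, 31 of them higher (24.6%) and 16 lower (12.7%), against the 17.0% and 8.03% of all named genes given above. The split depended on the scaling, with 15 higher and 19 lower after median centering, 25 and 25 with the scanner log ratios and 22 and 26 with the log2 ratios of the authors' table. The median over all fitted probes moved too, from 0.004 to −0.065, −0.083 and −0.080 in this order, so such shifts are not particular to a list. None of the 47 genes (45 with a value in the authors' table) had the opposite sign under these or the other 2 background corrections. In BK_APP and in HOE_APP 0 of the 126 genes passed by limma.

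Among 53 other neuropeptide precursors 26 were expressed, with 6 higher and 1 lower in APP_WT and a median log2 fold change of 0.08, which was −0.09 with the scanner log ratios. Calca, the precursor of calcitonin and of calcitonin gene-related peptide, was above background in 4 of 4 APP_WT but 1 of 4 WT channels and had ratios of 0.65, 0.40, 0.83 and 1.01 (fitted 0.72, SE 0.10, limma adjusted p = 0.000506). In this comparison Calca counted as expressed through the APP_WT channels alone, the group in which it was high. Its passing the threshold is therefore no support for the difference. Grp, which encodes gastrin-releasing peptide, had 1.11, 0.83, 0.29 and 0.62 (fitted 0.71, SE 0.13, limma adjusted p = 0.00283). Cort, the somatostatin relative cortistatin, was 1.29-fold higher, and Adcyap1, Nmb and Pomc rose by 0.21, 0.28 and 0.24, the last pair with 1 array below 0. Hcrt, the orexin precursor, was the 1 that fell, by 0.38 (SE 0.07, limma adjusted p = 0.00367).

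Proteins that process the precursors or make up their granules had the highest median of the 6 lists, 0.20, with 9 higher and 1 lower of 26. Scg3 (secretogranin III) rose by 0.54 (SE 0.05, limma adjusted p = 2.7e-05) and Ptprn, a membrane protein of granules, by 0.50. Cpe, the carboxypeptidase that trims the cut peptides, rose by 0.46, the convertase Pcsk2 by 0.41 and Pcsk1n, an inhibitor of convertases, by 0.34. Scg2 (secretogranin II) went the other way on all 4 arrays, with −0.23, −0.34, −0.77 and −0.59 (fitted −0.48, SE 0.06, limma adjusted p = 0.00017). The convertase Pcsk1 (−0.13), Vgf (0.20) and Chga (0.12) did not pass. After median centering the list had 3 higher and 3 lower.

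Peptide-degrading enzymes had 3 higher and 0 lower of 13, with a median of 0.11, and 1 higher with a median of 0.03 after median centering. The 3 were Cpq with 0.49, and the endopeptidases Nln (neurolysin) with 0.30 and Thop1 with 0.22. The enkephalin-cleaving Mme (neprilysin) had 0.24 and did not pass.

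Of 17 expressed receptor and binding protein genes for the member peptides, 4 were higher and 1 was lower, with a median of 0.10 that was −0.01 after median centering. Trhr, the receptor of the Trh peptide, had ratios of 0.77, 0.88, 0.79 and 0.88 (fitted 0.83, SE 0.05, limma adjusted p = 2.98e-06), or 1.78-fold. Npy1r, a receptor of neuropeptide Y, had −0.62, −0.67, −0.58 and −0.45 (fitted −0.58, SE 0.05, limma adjusted p = 1.91e-05), which is 1.49-fold lower while its ligand gene was higher. Cckbr, a receptor of cholecystokinin, rose by 0.29 and the somatostatin receptor gene Sstr5 by 0.20. Crhbp, which binds corticotropin-releasing hormone, had a fitted value 1.18-fold higher (limma adjusted p = 0.0131). It was above background on 2 of 4 APP_WT and 0 of 4 WT channels, so it was not expressed by the rule of 3 arrays in this comparison.

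CREB-responsive and activity-regulated genes had 4 higher and 4 lower of 20 and a median of −0.07. The scaling moved this split, to 2 higher and 4 lower (median −0.14) after median centering, 3 and 6 (−0.25) with the scanner log ratios and 2 and 7 (−0.25) with the authors' table. Egr1 fell by 0.44, Nr4a2 by 0.38, Npas4 by 0.37 and Sik1 by 0.23, while Crem rose by 0.35, Egr2 by 0.32, Per1 by 0.21 and Pde4b by 0.21. Fos had −0.05 and did not pass.

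Interneuron and striatal lineage genes moved in both directions, with 5 higher and 9 lower of 24 and a median of 0.03 that was −0.08 after median centering. Among those that fell were homeobox genes of the ventral telencephalon, with Dlx1 at −0.59 (SE 0.06, limma adjusted p = 0.000105), Dlx5 at −0.44, Dlx2 at −0.40 and Dlx6 at −0.27. Meis2, Calb2, Nr2f2 and Satb1 fell too. Pvalb, the calcium-binding parvalbumin of a class of interneurons, rose by 0.47 and the transcription factor gene Foxp2 by 0.31. Gad1 and Gad2, which encode the GABA-synthesizing enzymes, rose by 0.33 and 0.30 and Reln by 0.27, although replicate 1 of each of these 3 was below 0 and Reln was above background in 2 of 4 APP_WT and 1 of 4 WT channels. Lhx6, a factor of the lineage that makes Sst interneurons, had 0.13 and did not pass.

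**Figure D5:**
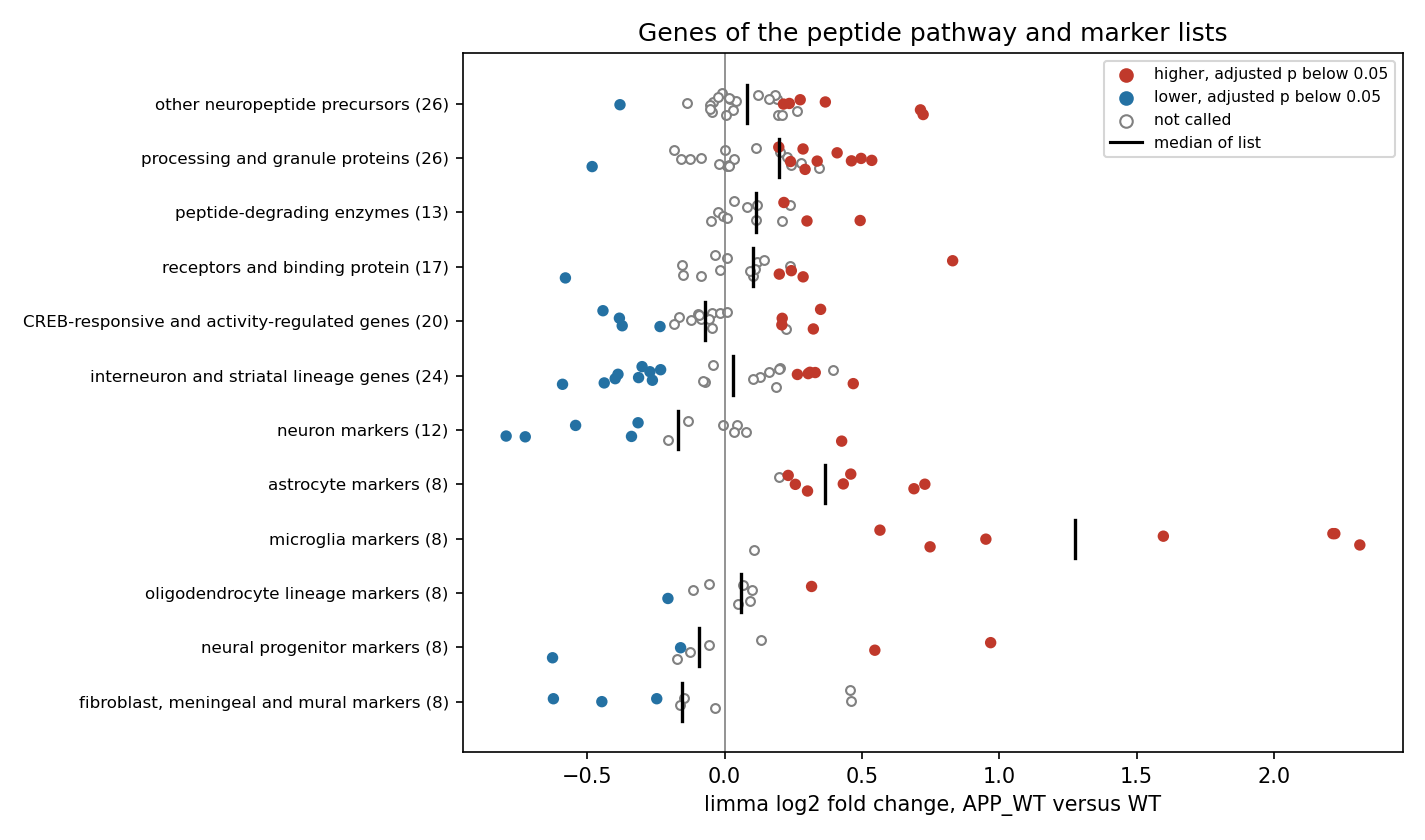
Limma log2 fold change, APP_WT versus WT, of the expressed genes of the 6 peptide pathway lists and 6 marker lists (number of genes in parentheses; red, higher and blue, lower with an adjusted p below 0.05; open, not called; black line, median). Granule and processing proteins lie mostly right of 0, lineage genes on both sides, and microglia markers reach 2.31 (Cx3cr1, expressed in this comparison through APP_WT alone).

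Markers of other cells moved with these differences, and their part in them was not tested. Microglia markers had 7 higher and 0 lower of 8 expressed (of 10 listed) between APP_WT and WT, with a median of 1.27, and the log2 of their summed levels was 13.17 to 13.49 in WT and 13.61 to 13.98 in APP_WT. In the WT channels 4 to 7 of the 8 were above background. Tyrobp and Trem2 were above background in 4 of 4 APP_WT but 1 of 4 WT channels, and Cx3cr1 in 4 of 4 and 2 of 4. In this comparison these genes counted as expressed through the APP_WT channels alone, the group in which they were high. Their passing the threshold and their part in the median are therefore no support for the difference. Astrocyte markers had 7 higher and 0 lower of 8 (median 0.37; 3 higher and median 0.18 after median centering), with summed levels of 16.58 to 16.88 in WT and 17.05 to 17.2 in APP_WT. The microglia and astrocyte sums were without overlap. How many other sets or probes lacked overlap was not counted, so nothing is read from this.

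Neuron markers had 1 higher and 5 lower of 12 (median −0.17; 1 and 7 and −0.36 after median centering), and their summed levels of 17.1 to 17.29 in WT and 16.95 to 17.15 in APP_WT overlapped. Nefm (−0.79), Nefl (−0.73), Dcx (−0.54), Elavl3 and Map2 fell and Syt1 rose by 0.43, so that Npy, Sst and Penk were higher where most neuron markers that passed were lower. Oligodendrocyte lineage markers had 1 higher and 1 lower of 8, neural progenitor markers 2 and 2 of 8, and fibroblast, meningeal and mural markers 0 and 3 of 8. Of the last set, Lum was above background in 1 of 4 APP_WT but 4 of 4 WT channels. In this comparison it counted as expressed through WT alone, so its passing the threshold is no support for the difference.

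In the treated comparisons no marker passed by limma. Median centering placed the median over all fitted probes at 0.04 after BK and at 0.08 after HOE-140, against −0.005 and 0.0002 in the main fit. After BK all 12 neuron markers had values below 0 (median −0.10), 8 of them after median centering and all 12 with the scanner log ratios. Of 17 receptor genes 15 were below 0, and 10 were under either of these settings. Microglia markers had 6 of 8 values above 0 after BK (median 0.12), 7 after median centering (median 0.18), and 4 of the 8 had an unadjusted p below 0.05 in limma. After HOE-140 all 8 astrocyte and all 8 microglia markers were below 0 (medians of −0.09 and −0.08). These counts became 2 and 3 of 8 after median centering, stayed 8 and 8 with the scanner log ratios and were 8 and 7 with the authors' table. The pathway gene with the largest size after BK was Sytl4, a granule-docking protein, at 0.41, with 1.43 on replicate 3 and 0.21 or less on the others. After HOE-140 it was Adm, the adrenomedullin precursor, at −0.25. The smallest limma adjusted p among the list genes was 0.967 after BK and 0.924 after HOE-140.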

How the data were processed

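The authors deposited scanner output with median intensity values of every spot and its local background in both channels, not normalized, and a log10 ratio formed from processed signals. The authors also deposited log2 ratios as a single table, a column for each array (median −0.155 to 0.036), which correlated with the signed log ratios of the scanner output (r of 0.9986 to 1). The normalization behind it is not given in the sources used here. The headers name Feature Extraction 11.0.1.1 and design build mm9, which gives no coordinate here.

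With data.table (version 1.17.8) and limma 3.58.1 under R 4.3.3, median signals were processed anew. The background was corrected by normexp (offset 50), which shrinks ratios of dim probes, and arrays were normalized by loess (span 0.3). Controls (3671 of 62976 spots) and uneven spots were left out, and spots of a probe were averaged (55681 probes). Ratios were turned to APP_WT over WT or treated over APP_WT. Expressed probes (29361) were well above background in 1 condition's channel on 3 of 4 arrays of a comparison. Single-channel levels were set across arrays by quantiles of mean intensity, so levels are compared only between channels and never between probes. Of 29150 probes with a RefSeq accession 27509 were named through a GRCm38.p6 gene table, and a gene outside the members was read by its brightest probe.

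The limma model held a mean and a dye coefficient per comparison over 12 arrays (6 residual and 4.56 prior degrees of freedom). P-values were two-sided, Benjamini-Hochberg adjusted across every expressed probe, with 0.05 as the threshold. Replicates are 4 independent biological replicates according to the methods, and the number of arrays limits the precision. SAM and rank products were programmed anew (16 sign flips, 100 permutations, unadjusted p of 0.05 or lower in both). The model was tested on simulated data. APP_WT versus WT was on a slide of its own and the treated arrays on another, so slide and contrast cannot be told apart, although ratios were formed within arrays.

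Same-numbered arrays deviated together, with r of 0.423 and 0.432 between BK_APP and HOE_APP and of −0.507 to −0.206 between either and APP_WT versus WT, where APP_WT is on the other side of the ratio. The numbers thus pair the arrays, and a fit with the replicate number as a block was run. Named list genes are the up to 4 per list with the largest change among those called with 1 sign on 4 arrays, or the 2 with the largest size where none was called. Other list genes were named after their values were seen. Members and lists were chosen with earlier results of these data known.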

Additional observations from a re-analysis of the deposited data

Results flagged for a closer look

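In 2 of the 29 groups of 4 arrays with a member ratio on each array, 1 array lay far from the other 3 by Dixon's criterion, and chance gives this in about 1 of 20 groups. Cck had a log2 ratio of 0.52 on replicate 1 of APP_WT versus WT, with the other 3 arrays between 0.08 and 0.16. Crh had 0.13 on replicate 2 of BK_APP versus APP_WT, with the other 3 between −0.08 and −0.05.

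Penk had ratios below 0 on 4 of 4 BK_APP arrays and above 0 on 4 of 4 HOE_APP arrays. The difference BK_APP minus HOE_APP was −0.29 (SE 0.09), with an unadjusted p of 0.00827 in the limma model and an adjusted p of 1. The labels do not settle the HOE_APP direction. With it turned, Penk was below 0 on all 8 arrays and the difference was −0.02 (SE 0.09).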

How the results depend on the processing

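Of the 114 member values recomputed for each comparison, the number that moved by less than 1 SD of the arrays was 105 against WT, 108 after BK and 108 after HOE-140, and no called value changed sign. For a probe with 4 arrays, the filters, the fit without a dye term and the block return the same value by construction. Leaving out 1 array shifts it by less than 1 SD. Only settings that changed the ratios could thus move a value, and these numbers overstate the stability. Between APP_WT and WT, 4 to 7 members were called under all alternatives, 7 with the replicate block, which pairs arrays of the same number and added Cck and Vip, and 4 to 5 with any replicate left out. SAM and rank products called 4 members and 12.4% of all probes tested. For the other alternatives the share of all probes called was not counted, so nothing is read from these numbers. The block changed no other call of a member and gave 61 pathway genes in place of 47. Pathway genes called between APP_WT and WT numbered 32 to 47 with any replicate left out, 19 when each comparison was fitted alone without a dye term and 30 by SAM and rank products. The 30 were 25.9% of the 116 pathway genes tested, against 12.4% of all probes tested. For the other settings the share of all probes was not counted, so nothing is read from their counts. SAM and rank products called 3 members in HOE_APP, 3 pathway genes in BK_APP and 3 in HOE_APP where limma called 0. Of the pathway genes tested this was 2.52% in BK_APP and 2.38% in HOE_APP, against 1.95% and 2.34% of all probes tested. Turning the HOE_APP direction, an alternative chosen after seeing the data, left 0 members called in BK_APP minus HOE_APP. The cause was not tested. Trh was called in 5 of 13 alternatives (limma adjusted p of 0.00973 to 0.239), Tac1 in 2, both with scanner or authors' ratios (−0.44), and Vip and Cck as given above. Pmch, Vip and Crh could not be fitted when detection in both channels was required, and Pdyn had a value only without a filter. Signal over background limits Pmch, Pdyn, Vip and Crh, whose ratios depend on the background correction. The members' channels above background numbered 188, and 218 by the significance flag.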
